A study of Mus musculus with 2 samples.

Results

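DNase I cuts open chromatin more often than packed chromatin, so that stretches with many cuts appear as peaks. Within open chromatin, a protein bound to DNA shields the bases under it, and the short stretch of few cuts that remains is called a footprint. Footprints are usually read inside peaks. Described here are 8414 footprints that lay outside every strict peak of both libraries and yet were found at the same place in both. They were 2.28% of the 368543 footprints of replicate 1 on the 19 autosomes.

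The data were DNase-seq profiles of whole kidney from female B6CASTF1/J mice aged 36 days, hybrids of C57BL/6J and CAST/EiJ. There were 2 libraries, labelled biological replicates 1 and 2 of 1 group, with no treatment, control or second condition, and both carry the same donor entry. Whole kidney mixes tubule, vessel, stromal and immune cells, and a footprint seen here cannot be assigned to any of them. The sources used here give no read totals, so the depth behind each footprint is unknown.

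A member was a replicate 1 footprint that overlapped no strict peak of either library and shared at least 50% of the shorter footprint with a replicate 2 footprint. The strict peak set of each library is the smaller of the 2 deposited sets. Checked against the deposited FDR (false discovery rate) intervals, the lowest rate within a strict peak on the autosomes never exceeded 0.001, and for wider peaks the bound was 0.05. Strict peaks numbered 121707 in replicate 1 and 66760 in replicate 2, and replicate 2 had 219842 footprints. The members were chosen by measured values, their place outside strict peaks and their match, so distance, peak status, rate and match are given only as descriptions. Position relative to genes and DNA sequence were not used to choose them, though the bar on strict peaks can shape both. Shares are given with counting intervals and without tests, since footprints of 1 group are not replicates.

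The members fell into 2 kinds by their distance from the nearest strict peak, counted so that an adjoining footprint is 1 bp away. Shoulder footprints, up to 150 bp away, numbered 7257, or 86.2% of the members. Detached footprints, farther away, numbered 1157, or 13.8%. Windows from both kinds are shown first, to give the letters that the motif shares count.

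The paired site of the NFI family had its highest share among detached footprints. NFI proteins are nuclear factors that bind an inverted repeat as dimers and are expressed in kidney. The windows below have 60 bases each, centred on the footprint, and the capitals mark the NFI pair. Their footprints were 22 to 29 bp wide, against a median of 11 bp over detached footprints with the motif. The windows were read from the plus strand of the mm10 reference, as were the other windows in the text, and CAST/EiJ bases can differ from it.
NFI pair, nearest start Crebl2, chr6:134830551-134830610: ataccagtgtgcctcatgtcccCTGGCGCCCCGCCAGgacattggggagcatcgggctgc
NFI pair, nearest start Acss1, chr2:150669809-150669868: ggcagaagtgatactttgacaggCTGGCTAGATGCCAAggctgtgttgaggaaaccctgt
NFI pair, nearest start Crim1, chr17:78221475-78221534: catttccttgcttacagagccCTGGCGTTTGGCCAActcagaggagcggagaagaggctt
NFI pair, nearest start Lasp1, chr11:97809157-97809216: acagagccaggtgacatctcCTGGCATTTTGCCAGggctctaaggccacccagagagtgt

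CTCF, the zinc-finger protein that marks chromatin loop ends, had its motif in 21 members, 17 of them detached. Of these 17, 11 were in introns, 3 between genes, 2 at promoters and 1 in a coding exon. Both windows below are from promoter footprints, and the capitals mark the CTCF match.
CTCF, nearest start Gpsm1, chr2:26325924-26325983: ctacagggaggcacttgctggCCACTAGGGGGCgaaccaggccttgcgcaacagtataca
CTCF, nearest start Tmem82, chr4:141618663-141618722: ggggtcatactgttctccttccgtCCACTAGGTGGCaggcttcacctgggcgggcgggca

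YY1 is a zinc-finger factor that binds just downstream of many promoters' start sites. Its motif was in the windows of 72 members, 70 of them shoulder footprints, which were 86.2% of all members. The windows printed here had footprints of 27 to 34 bp, against a median of 14 bp over shoulder footprints with the motif. The windows below have 30 bases and are centred on the motif, in capitals, which reads AAGATGGC or, from the other strand, GCCATCTT.
YY1, nearest start Pdhx, chr2:103073434-103073463: tccaggaggccGCCATCTTcccggctttct
YY1, nearest start Rab14, chr2:35200967-35200996: cgggctggcccAAGATGGCggcgctccctg
YY1, nearest start Gm49320, chr8:4238896-4238925: cggcggcggggAAGATGGCggcgtcctccc
YY1, nearest start Tnks, chr8:34965650-34965679: gacgcgacgccGCCATCTTcccactccccc

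The next set takes the motifs held by at least 50 members and with the largest ratio of their share in members to that in windows 100 bp away. For each it gives a member over 1 kb from any strict peak, outside UTRs and with the match wholly inside its footprint. Where several qualified, the one whose overlapping intervals had the lowest false discovery rate, summed over the libraries, was taken. YY1 led this ranking with a ratio of 3.6 and had no such member, and the NFI pair, with a ratio of 12.6, was in 44 members and so not ranked. SP, KLF and TFAP2 factors bind GC-rich promoter sites, E-boxes bind helix-loop-helix factors, RFX factors bind promoters of cilia genes among others, and TEAD factors act in the Hippo pathway. The capitals mark the motif.
SP and KLF, nearest start 2810405F15Rik, chr2:116076029-116076088: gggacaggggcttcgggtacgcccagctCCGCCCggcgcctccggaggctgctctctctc
TFAP2, nearest start Gm22330, chr13:31359488-31359547: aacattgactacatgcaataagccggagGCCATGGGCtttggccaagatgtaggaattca
E-box CAGCTG, nearest start Gm37600, chr1:91883277-91883336: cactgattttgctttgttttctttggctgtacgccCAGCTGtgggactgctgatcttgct
RFX, nearest start Rapgef2, chr3:79145777-79145836: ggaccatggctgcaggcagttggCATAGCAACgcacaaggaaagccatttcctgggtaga
single receptor site, nearest start 1200007C13Rik, chr2:167843118-167843177: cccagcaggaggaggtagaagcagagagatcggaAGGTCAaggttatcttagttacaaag
TEAD, nearest start Cd63, chr10:128902749-128902808: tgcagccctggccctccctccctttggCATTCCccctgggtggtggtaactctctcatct
E-box CACGTG, nearest start Ppp2r2d, chr7:138847829-138847888: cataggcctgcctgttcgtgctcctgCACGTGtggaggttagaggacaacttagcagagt

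All 7 of these footprints were in wider peaks of both libraries. The footprint with the SP and KLF site near 2810405F15Rik lay 37 bp downstream of a start and 4314 bp from a strict peak. It was in wider peaks of height 1.77 in replicate 1 and 1.65 in replicate 2. The RFX footprint lay 68 bp from a start of Rapgef2, a guanine nucleotide exchange factor, and its wider peaks had heights of 0.547 and 0.601. Of the NFI windows, that near Crebl2 differed from the rest in lying outside wider peaks. It was 329 bp from strict peaks of height 31.4 in replicate 1 and 21.7 in replicate 2.

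Most members sat at the edge of a strict peak. The median distance was 24 bp, 6032 members (71.7%) were within 50 bp, and 1225 (14.6%) were 51 to 150 bp away. A further 537 were over 150 and up to 1000 bp away, 549 were over 1000 and up to 10000 bp away, and 71 were farther, up to 53238 bp. Of the shoulder footprints, 636 had a strict peak within 150 bp on both sides. The rule has a sharp edge here, since 1199 members lay 1 to 5 bp outside a strict peak, while 1378 matched footprints overlapped a strict peak by 1 to 5 bases and were no members. The median width was 15 bp on either side of that edge. At the edge of the match, 351 members shared a fraction of 0.5 to under 0.6 of the shorter footprint, and 265 footprints outside strict peaks shared 0.4 to under 0.5.

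**Figure D1:**
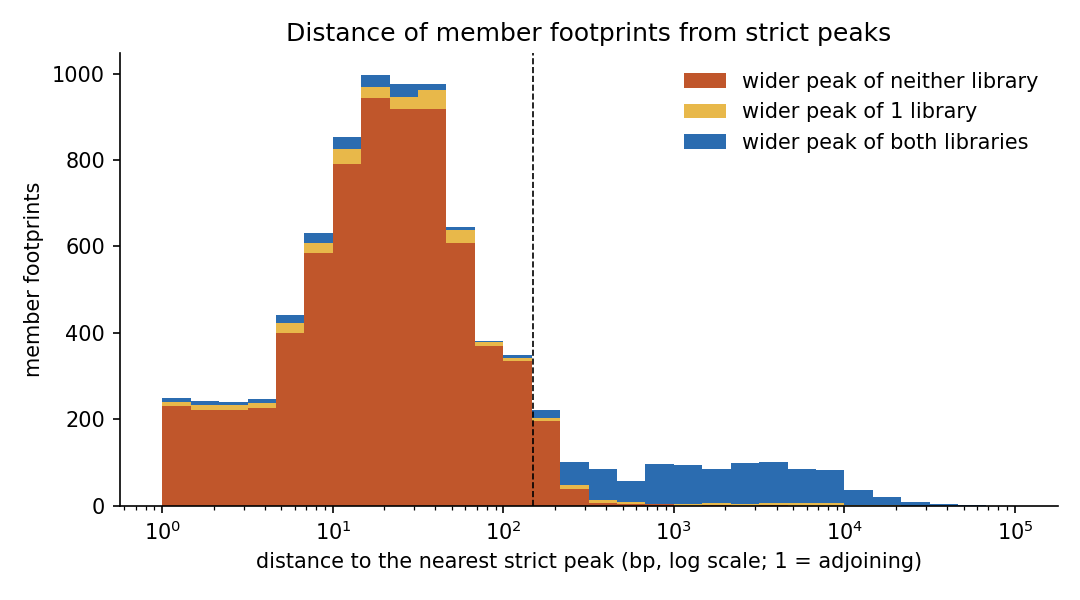
Number of member footprints (vertical axis) by distance to the nearest strict peak in bp (horizontal, log scale), stacked by how many libraries have a wider peak there; the dashed line is at 150 bp. Shoulder footprints, with a median of 19 bp, are mostly outside wider peaks, and those over 1 kb away are nearly all in wider peaks of both libraries.

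The wider peaks held few of the members. They lay in a wider peak of both libraries in 1063 cases, which is 12.6% (95% Wilson interval 11.9 to 13.4), against 62.9% of all replicate 1 footprints. Of strict peaks, which the rule bars, 99.3% in replicate 1 and 99.1% in replicate 2 overlapped a wider peak. The rule thus lowers the members' share. Among unmatched footprints outside strict peaks the share was 7.45%, below that of the members. No wider peak of either library held 7020 members (83.4%), against 36.2% of those unmatched footprints. The 2 kinds differed in this. Only 194 shoulder footprints (2.67%) were in wider peaks of both libraries, while 869 detached ones (75.1%) were. The deposited intervals with a false discovery rate under 0.05 held nearly every member. Of the 8414, 8412 lay in such an interval of replicate 1, 8398 in one of replicate 2, and 8396 in both, against 76.1% of all replicate 1 footprints in both. The 76.1% counts footprints without a match, while members need a replicate 2 footprint, so the rule shapes this contrast. All 99799 matched footprints inside strict peaks lay in such intervals of both libraries.

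The false discovery rate of a footprint is here the lowest among the deposited intervals that overlap it. It describes those intervals and is no score of the footprint itself. The rates were split by distance and wider peaks. Shoulder footprints had a median rate of 3.43e-52 in replicate 1 and 2.78e-36 in replicate 2. The 929 detached footprints in a wider peak of either library had medians of 0.00483 and 0.0102, between the strict and wider limits, and their wider peaks had median heights of 0.789 and 0.693. The 228 detached footprints in no wider peak had medians of 5.03e-41 and 3.74e-27, with the nearest strict peak at a median of 182 bp and a median height of 16.7 in replicate 1 and 12.8 in replicate 2. These 228 were close to the shoulder footprints in rate and in the height of the neighbouring peak, and 194 of them (85.1%) were within 1 kb of a start site. Height is the authors' signal value of a peak, scaled by library, and is used only to rank peaks within a library. In whole tissue, a low height from few cells with open chromatin and one from little cutting per cell cannot be told apart.

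Shoulder footprints adjoined tall peaks. The nearest strict peak had a median height of 14.3 in replicate 1 and 10.6 in replicate 2, against 4.48 and 2.84 for the peaks around matched footprints inside strict peaks. For 5847 shoulder footprints (80.6%), the nearest strict peak of replicate 1 was among its tallest 10%, those of at least 5.87. Here and below, a footprint beside a height class has its nearest replicate 1 strict peak in that class. That peak can be over 150 bp away where only replicate 2 has a nearer one. Inside strict peaks of both libraries, 39.6% of the matched footprints lay in that class. Match between libraries also moved with height. This was seen in replicate 1 footprints outside strict peaks and up to 150 bp from one. Matched were 2.13% (1.73 to 2.61) beside the lowest 25% of strict peaks and 38.3% (37.5 to 39.1) beside the tallest 10%. Inside strict peaks of both libraries the corresponding shares were 25.9% and 75%. Over all heights and distances, 12.9% of the 65217 footprints outside strict peaks were matched, against 54.7% of the 182545 inside strict peaks of both.

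**Figure D2:**
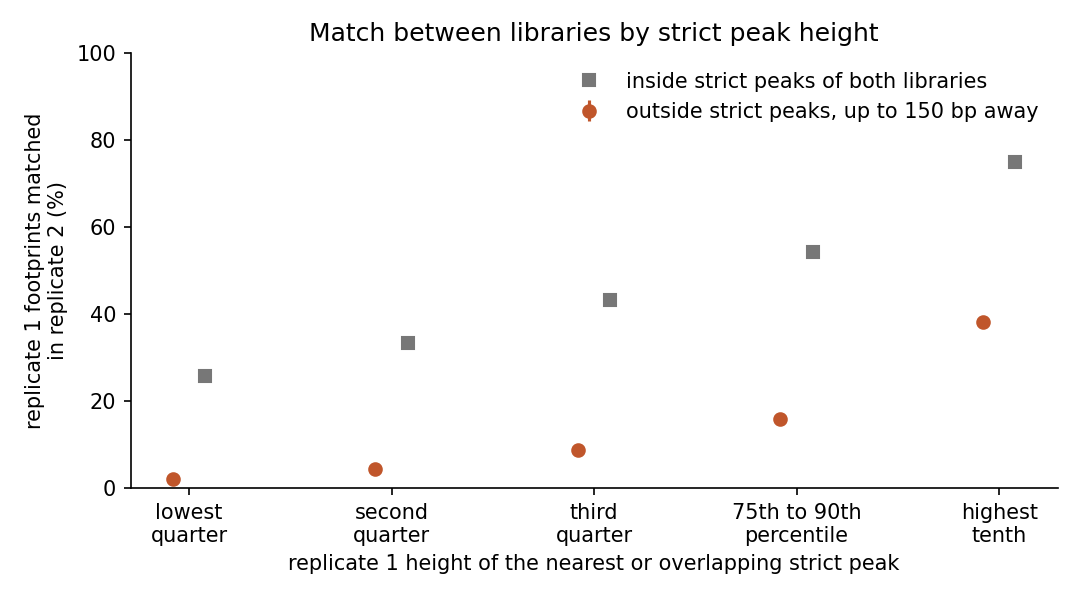
Share of replicate 1 footprints matched in replicate 2 in percent (vertical axis) by height class of the nearest or overlapping replicate 1 strict peak (horizontal); circles, footprints outside strict peaks and up to 150 bp away, with 95% Wilson intervals smaller than the symbol; squares, footprints inside strict peaks of both libraries. The circles rise from 2.13% to 38.3% and stay below the squares in each class.

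Promoters held a higher share of the members than of the footprints inside strict peaks. A start site was that of any transcript in GENCODE M21, and a promoter footprint had its middle within 1 kb of one. Of the members, 5906 (70.2%, interval 69.2 to 71.2) were promoter footprints, against 33.7% of all replicate 1 footprints and 47.5% of the 99799 matched footprints inside strict peaks of both libraries. The member share was the higher of the last pair on 19 of 19 autosomes, between 61.7% on chromosome 18 and 77% on chromosome 7. Introns held 1307 members (15.5%), intergenic sequence 1001 (11.9%), exons without coding sequence at that base 144 and coding exons 56.

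The kinds of member differed in this. The shoulder footprints' promoter share was 76% (75 to 77), while that of detached footprints was 33.5% (30.9 to 36.3), above and below the 47.5% inside strict peaks on 19 of 19 autosomes each. Peak height moved with these shares. Beside the tallest 10% of strict peaks, 86.9% of shoulder footprints were at promoters, against 77.7% of matched footprints inside peaks of that class. In the class from the 75th to the 90th percentile, the shares were 36.6% and 35.4%. Within a height class the shares were closer than the pooled ones, and the part of height in the pooled difference was not tested. Detached footprints in wider peaks had a promoter share of 20.9% (18.4 to 23.6), with 48% in introns, and those over 1 kb from any strict peak had 14.2%, with 49.8% in introns and 29.7% between genes.

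At promoters, shoulder footprints were spread otherwise than footprints inside peaks. By definition they lie beside strict peaks and not in them, and the part of that rule in the spread was not tested. Inside strict peaks, 40.9% of promoter footprints were 1 to 100 bp upstream of the nearest start and 17.9% lay from the start to 99 bp downstream. For shoulder footprints the order was turned, with 19.8% upstream and 33% (1823 of 5518) downstream. In bins of 50 bp, the first 50 bases downstream held 24.2% of promoter shoulder footprints, and the count fell from 485 in the next bin to 164 in the one after. A lesser group of shoulder footprints lay upstream, with 11.5% at 200 to 300 bp and 7.63% at 300 to 500 bp, against 4.54% and 3.83% inside peaks. Between these groups, 5.69% were 51 to 100 bp upstream, where 15.8% of the footprints inside peaks lay. Along the gene's direction, 3180 promoter shoulder footprints (57.6%) lay on the downstream side of their peak.

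**Figure D3:**
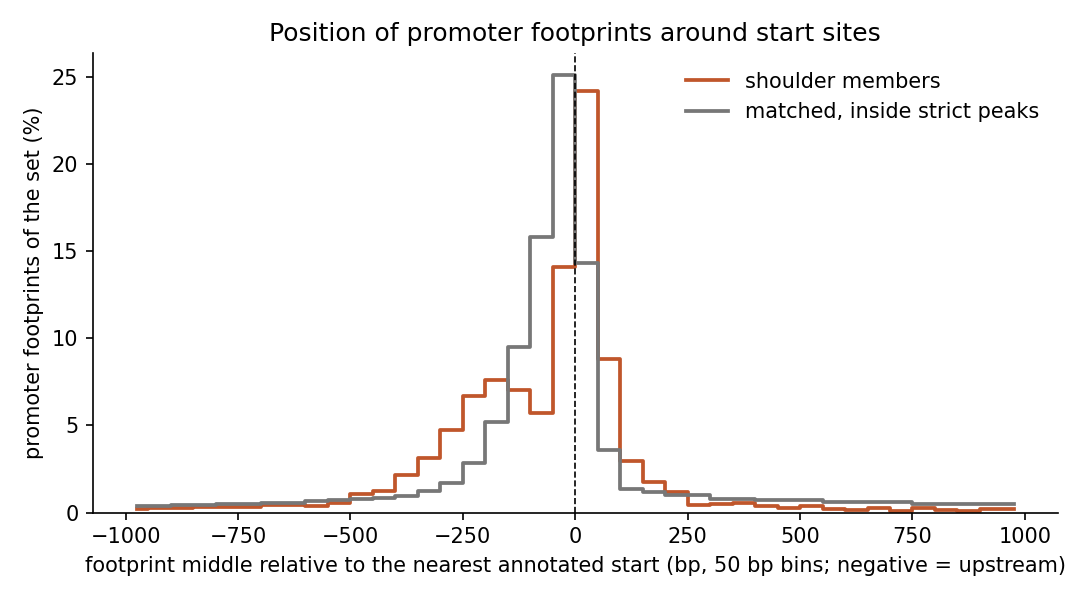
Share of promoter footprints in percent (vertical axis) by position of the footprint's middle relative to the nearest annotated start in bp (horizontal, bins of 50 bp, negative values upstream), for shoulder members and for matched footprints inside strict peaks of both libraries. The shoulder curve is highest in the first 50 bases downstream, at 24.2%, and has a lesser rise upstream, on either side of the grey curve's summit at 25.1%.

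The promoter members were spread over many genes. They had 3939 different genes as their nearest start, 3771 among shoulder and 324 among detached footprints. Joined where they were at most 200 bp apart, the members formed 7033 clusters, of which 5970 held 1 member and 29 held 5 or more. The largest, with 8 members over 287 bp at chr16:93711404-93711690, lay near a start of Dop1b. Its tallest strict peak within 200 bp had a height of 16.7 in replicate 1 and 11.8 in replicate 2, and its members were 67.5% G and C. Clusters of 7 members were found at Csnk1g2, which encodes a casein kinase (chr10:80622265-80622730), between Nsun2, an RNA methyltransferase, and Srd5a1, a steroid reductase (chr13:69611428-69611871), and at Maz, a zinc-finger factor (chr7:127026918-127027237). At Maz no strict peak of replicate 1 lay within 200 bp of the cluster, although replicate 2 had one of height 20.7. The cluster's members were 47.1% soft-masked repeat sequence and 77.1% G and C. Clusters of 6 lay at Zswim6 and at Six5, a homeobox factor. Those of 5 that the ranking took next were at Rab1a, a GTPase of transport from the endoplasmic reticulum, Mtmr4, Sp2, an SP family factor, and Wipi1, an autophagy protein. All members of these 10 clusters were at promoters, and none was in a wider peak.

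**Figure D4:**
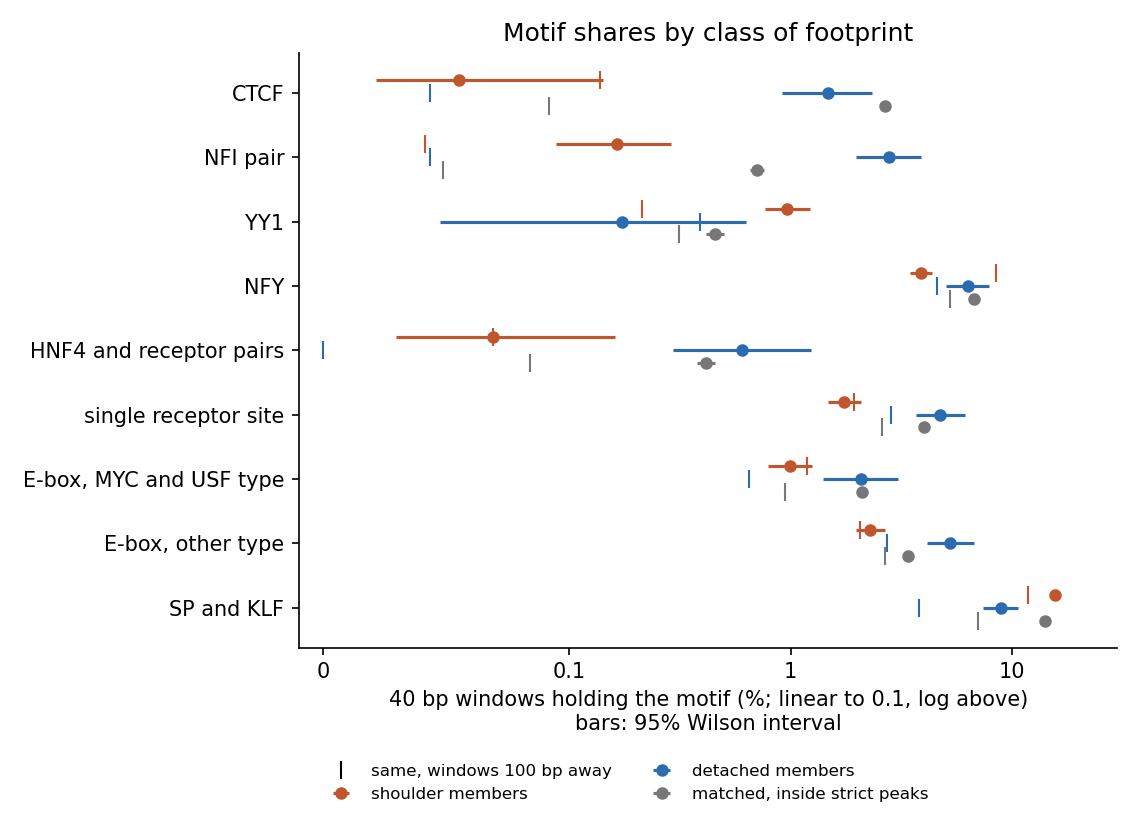
Share of 40 bp windows holding each motif in percent (horizontal axis, linear up to 0.1 and log above) for shoulder members, detached members and matched footprints inside strict peaks, with 95% Wilson intervals; ticks give the same share in windows 100 bp away on either side. CTCF is lowest in shoulder members (0.0551%), the NFI pair is highest in detached members (2.77%) and YY1 is highest in shoulder members (0.965%).

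Motifs were searched as fixed letters on both strands in the 40 bp centred on each footprint, and a match describes letters, not binding. A footprint is said to hold a motif where this window does, and the match can reach beyond the footprint. Windows 100 bp away from shoulder footprints can lie within the neighbouring strict peak, at a median of 19 bp, and so are no neutral background. The NFI pair is a palindrome-like repeat with spacer, searched under its name. Of 1157 detached footprints, 32 (2.77%, interval 1.97 to 3.88) held it, against 0.165% of shoulder footprints, 0.703% of matched footprints inside strict peaks and 0.448% of all replicate 1 footprints. Windows of the same length 100 bp away from the detached footprints held it in 0.0432%. The detached share was above the inside share on 16 of 19 autosomes. The matches were centred, since 22 lay within 5 bp of the footprint's middle. In 11 of the 32 footprints the match lay wholly inside, and the median width of the 32 was 11 bp. Of the 32 footprints, 12 were in introns, 10 at promoters and 6 between genes, 26 were in wider peaks of both libraries, and 21 were over 1 kb from a strict peak. In 4 of them the window also held CCAAT, which can overlap the NFI site.

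NFI shares moved with peak height too. Among matched footprints inside strict peaks, the share was 2.36% (1.48 to 3.74) in the lowest 25% of peaks, those under a height of 0.742. It was 1.56% and 1.11% in the next classes and 0.342% (0.289 to 0.404) in the tallest 10%. Detached footprints in wider peaks, of median height 0.789, had 3.12% (2.18 to 4.45), which overlaps the interval of the lowest class. Detached footprints of replicate 1 that found no match, but were in a wider peak, had 0.699% (0.61 to 0.801). Among footprints of wider peaks alone, NFI sites thus had the higher share in those that both libraries held. The part of height in the detached share was not tested.

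**Figure D5:**
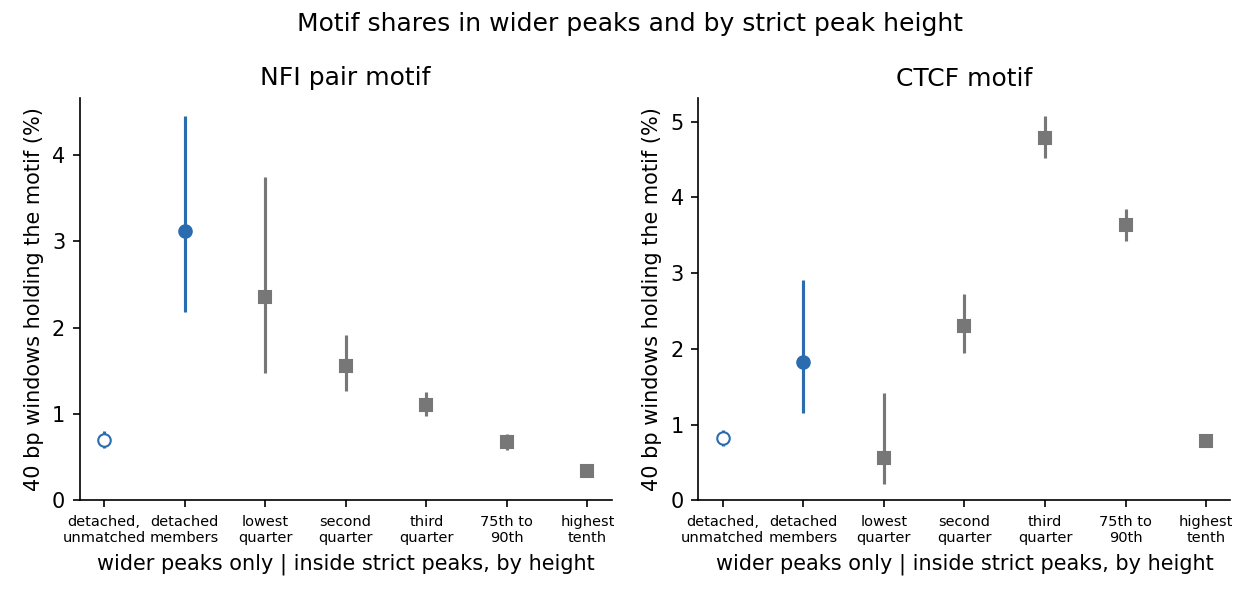
Share of 40 bp windows holding the NFI pair (left) or CTCF (right) motif in percent (vertical axis); circles, footprints over 150 bp from strict peaks and in a wider peak, unmatched (open) and members (filled); squares, matched footprints inside strict peaks by height class; bars, 95% Wilson intervals. For NFI the members (3.12%) lie beside the lowest class (2.36%) and the squares fall to 0.342%; for CTCF the squares are highest, at 4.79%, between the 50th and 75th percentile.

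CTCF sites were scarce among members. The motif was in 21 of 8414 (0.25%, interval 0.163 to 0.381), against 2.67% of matched footprints inside strict peaks and 1.65% of all replicate 1 footprints. Shoulder footprints held it in 4 of 7257 windows (0.0551%), below the inside share on 19 of 19 autosomes and no higher than the 0.138% of windows 100 bp away. CTCF letters were counted at a distance from the shoulder footprints too, with 31 and 27 matches in the bins 65 to 75 and 75 to 85 bp to the left of the middle on the plus strand and 27 and 28 in those to the right. The bin within 5 bp of the middle had 3 matches, and the windows 100 bp away cover these bins only in part. The part of the bar on strict peaks in this scarcity was not tested. Over 1 kb from any start, 0.115% of shoulder footprints held CTCF, against 4.29% of those inside peaks. Beside the tallest 10% of peaks the shares were 0.0513% and 0.782%. Detached footprints held CTCF in 17 windows (1.47%, 0.919 to 2.34), with 0.0432% in the windows 100 bp away, and 16 of these 17 were in wider peaks of both libraries. In 9 of the 17 the match lay wholly inside the footprint. Among footprints in wider peaks, detached members had 1.83% (1.15 to 2.91) and unmatched detached footprints 0.818% (0.721 to 0.928).

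YY1 letters were found at shoulder footprints near start sites. The motif was in the windows of 70 shoulder footprints (0.965%, interval 0.764 to 1.22), against 0.454% of matched footprints inside strict peaks, 0.214% of windows 100 bp away and 0.36% of all replicate 1 footprints. In 18 of the 70 the match lay wholly inside the footprint. The shoulder share was the higher on 16 of 19 autosomes. Of the 70, 68 were at promoters, and 51 of those lay from the start to 99 bp downstream. Inside strict peaks, 47.3% of the promoter footprints with YY1 lay there, against 75% of these 68. The letters AAGATGGC ran in the gene's direction in 54 of the 68 (79.4%), and inside strict peaks in 211 of 296 (71.3%). Where position and height were alike, both shares were higher than the pooled ones. From the start to 99 bp downstream and beside the tallest 10% of peaks, 2.88% (2.19 to 3.77) of shoulder footprints held YY1, against 1.97% (1.65 to 2.35) inside peaks, and these intervals overlap. The matches were not centred as the NFI ones were, with 21 within 5 bp of the middle and 23 from 5 to 15 bp to one side.

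NFY, a trimeric factor that binds the CCAAT box of many promoters, had its motif in a lower share of shoulder footprints than of footprints inside peaks. The shares were 3.9% (3.48 to 4.37) and 6.71% (6.55 to 6.86), with 5.37% over all replicate 1 footprints. The shoulder share was the lower at each promoter position examined. From 1 to 100 bp upstream the shares were 4.4% and 11%, and from 100 to 200 bp upstream 4.7% and 10.4%. From the start to 99 bp downstream they were 1.87% and 4.83%. Farther upstream within 1 kb they were 5.64% (4.48 to 7.06) and 7.58% (6.95 to 8.25), with overlapping intervals. From 100 to 1000 bp downstream they were 3.44% (2.21 to 5.3) and 5.17% (4.65 to 5.75), again overlapping. Intervals also overlapped over 1 kb from a start. Beside the tallest 10% of peaks the shares were 3.83% and 9.47%. In each lower height class the intervals overlapped, with 3.79% and 4.68% from the 75th to the 90th percentile. Windows 100 bp away from shoulder footprints held CCAAT in 8.45%, so the letters were more frequent there than in the windows centred on these footprints. The windows 100 bp away can lie within the neighbouring strict peak. Detached footprints had 6.31% (5.05 to 7.86).

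The SP and KLF box, GGGCGG, is bound by zinc-finger factors of GC-rich promoters. It was in 1134 shoulder footprints (15.6%, interval 14.8 to 16.5), against 11.8% of windows 100 bp away, 14.1% inside strict peaks and 7.58% of all replicate 1 footprints. Beside the tallest 10% of peaks the order of shoulder and inside shares was turned, at 18.1% and 24%. Detached footprints had 8.9% (7.39 to 10.7), against 3.8% of windows 100 bp away, and those in wider peaks 4.09%, against 1.35%. Among the E-boxes and receptor sites, CAGCTG was in 61 detached footprints (5.27%, interval 4.13 to 6.71), against 2.29% of shoulder footprints, 3.4% inside peaks and 3.37% of all replicate 1 footprints. CACGTG, the site of MYC and USF, was in 24 (2.07%, interval 1.4 to 3.07), against 0.992%, 2.1% and 1.53%. AGGTCA, the single site of many nuclear receptors, was in 55 (4.75%, interval 3.67 to 6.14), against 1.75% of shoulder footprints. The 4% inside peaks, the 4.27% over all and the 5.03% of unmatched footprints as far from strict peaks all fall within that interval. The HNF4 pair, CAAAGTCCA, bound by a nuclear receptor of the proximal tubule, was in 7 detached footprints (0.605%, interval 0.293 to 1.24), all in wider peaks of both libraries, and in 5 shoulder footprints (0.0689%). The 0.414% inside peaks and the 0.358% over all fall within the detached interval. TFAP2, TEAD, RFX and RUNX letters were in 29, 28, 21 and 21 detached footprints, and their shares over all footprints likewise fell within the detached intervals.

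Base composition was described by class. The 40 bp windows of shoulder footprints were 61.4% G and C (SD 14.2 over footprints), those of detached footprints 58.3% (SD 9.53), and those inside strict peaks 60.4% (SD 11), with 55.6% (SD 11.9) over all. The median number of CpG in 200 bp was 12 at shoulder footprints, 4 at detached ones and 6 inside peaks. Within the detached kind, the 228 in no wider peak had 14 and the 929 in a wider peak had 3. The median width was 15 bp for shoulder and 11 bp for detached footprints, against 20 bp inside strict peaks and 10 bp over all. Soft-masked repeat sequence covered 11.1% of the shoulder windows, 9.76% of the detached ones and 7.14% of those inside peaks.

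Around protein-coding genes, 6585 of 20807 (31.6%) had a member within the gene or 10 kb on each side. The genes with the most members included very long annotations. Gm20388 had 58 over an annotated span of 4435 kb and Fgfr2, a fibroblast growth factor receptor, had 20 over 2961 kb, the spans being those of GENCODE M21. Camta1, a transcription activator, had 15 over 945 kb, of which 6 had its start as the nearest. Midn had 14 around a gene of 10.1 kb, Nsun2 had 13, and Maz, Prrt2 and Gm42742, which are neighbours on chromosome 7 and share members, had 12 each. Tns1, an adhesion protein, and Gm37240 also had 12.

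Among the gene lists, the highest share was that of the kidney transcription factors. Of 30 listed factors, 17 (56.7%) had a member nearby, and 29 had a strict promoter peak in both libraries, against 62.2% of all protein-coding genes. Nfia, itself an NFI factor, had 5 members, 4 of them promoter members with its start as the nearest. Hnf4a, the proximal tubule receptor named above, had 4, none of that sort. Pax2, a regulator of nephron development, had 4, of which 3 were detached and 2 were promoter members with its start nearest. Among proximal tubule genes, 8 of 20 (40%) had a member, against 31.6% of all protein-coding genes, a difference that was not tested. Slc34a3, a phosphate transporter, had 5, Slc13a3, a dicarboxylate transporter, had 2, and Cubn, an endocytic receptor, had 1, and in none of these was a start of the gene itself the nearest within 1 kb.

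The other nephron lists had shares below 31.6%. They held 9 to 11 genes each, so 1 gene moves a share by much, and no difference from 31.6% was tested. Of thick ascending limb genes 2 of 10 had a member, Egf with 3 (2 of them detached) and Umod, the urinary protein uromodulin, with 1. Distal convoluted and connecting tubule genes had 2 of 10, the salt-handling kinases Wnk4 with 3 and Wnk1 with 2. Principal cell genes had 2 of 9, Elf5 and the sodium channel subunit Scnn1a with 1 each. Intercalated cell genes had 2 of 10, the exchanger Slc4a9 with 4 and the proton pump subunit Atp6v0a4 with 1. Podocyte genes had 3 of 11, with 6 members, 3 of them detached, at Synpo, an actin-binding protein of foot processes, and 2 at Foxc2. Endothelial genes had 3 of 12 (Cdh5, Egfl7 and Pecam1, 1 each) and stromal and mural genes 4 of 12, among them the matrix protein gene Dcn, Notch3 and the renin gene Ren1 with 1 each. Immune genes had 1 of 10, Cd68 with 3. No start of Slc4a9, Foxc2 or Cd68 was the nearest to a promoter member. The same held for Umod, Scnn1a, Atp6v0a4, Cdh5, Egfl7, Pecam1, Dcn, Notch3 and Ren1. None of 8 hepatocyte genes and none of 8 neuronal genes had a member. The lists also differed in how many genes had a strict promoter peak in both libraries, 15 of 20 for the proximal tubule and 2 of 8 for hepatocytes and for neurons. The part of promoter openness in the members' counts was not tested.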

How the data were processed

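DNase-seq of 2 kidney libraries was analysed from the deposited mm10 files. Per the deposited description, the authors derived peaks, footprints and FDR intervals separately for each library; the caller is not given in the sources used here. In the deposited peak files the signal value per peak is its height. The authors' FDR files give a false discovery rate, handled as a p-value (adjusted), per interval. Each footprint was given, per library, the lowest rate among the intervals that overlap it. The deposited footprint files carry 0.01 in every row, so footprints have no score.

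Overlaps, distances and motif matches were computed with numpy 2.4.6 and pandas 2.3.3, intersections with FDR intervals with bedtools 2.31.1, intervals with the Wilson method in scipy 1.17.1 (95%, counting error only, since footprints are not replicates), and figures with matplotlib 3.10.9. Genes came from GENCODE M21 and sequence from the mm10 reference. The 30 motifs were consensus letters searched on both strands in 40 bp windows. The steps were tested on simulated data. No test between groups could be made, as the design has 1 group. GC content, position and height were compared by class.

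The members, motifs and 12 gene lists were chosen with earlier results of these data known. Named regions were the 10 clusters with most members and, for each of the 8 motifs of at least 50 members with the largest ratio to windows 100 bp away, the member over 1 kb from strict peaks, outside UTRs and chromosome 18 and with the match inside its footprint, that had the lowest summed FDR. Named genes were the 10 with most members within 10 kb and up to 3 per list (ties in alphabetical order); 1 gene so taken is not reported here. The NFI, CTCF and YY1 windows, and the split of detached footprints by wider peak, were chosen after their values were seen. Alternatives changed the match, the barring peaks, the library supplying rows, the libraries used and the windows.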

Additional observations from a re-analysis of the deposited data

How the results depend on the processing

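The number of members was within 1.5 times the reported count in 5 of 8 alternatives (6485 to 9555). It was 1157 with strict peaks widened by 150 bp. With 1 library alone and no match asked, it was between 50949 and 76201. The share in wider peaks of both libraries was 13.6% with a match of 1 base, 11.8% with 80% of the shorter, 75.1% with widened peaks, 0% by construction with wider peaks as the bar, 11.5% with replicate 2 supplying the rows, and 8.84% to 50.7% with 1 library left out. The promoter share was 68.9%, 71.3%, 33.5% and 79.8% under the first 4 of these, 37.1% with either library left out, and 65.4% and 76.2% with start-site windows of 500 and 2500 bp. The CTCF share was 1.47% with widened peaks, 0.0427% with wider peaks as the bar, 0.155% in 20 bp windows, and 0.416% to 1.16% with 1 library left out. The alternatives with 1 library drop the match, so most of their footprints are not members. The NFI share of detached footprints was 0.741% and 0.822% there, 1.32% (3 of 228) with wider peaks as the bar and 1.47% in 20 bp windows. Chosen after seeing the data, bounds of 50 and 300 bp gave it as 1.55% and 3.32%. The YY1 share of shoulder footprints was 0.462% and 0.718% with 1 library left out and 0.441% and 1.28% in 20 and 60 bp windows, and the NFY share was 1.76% and 5.93% in those windows. Over 30 motifs, 107 of 300 alternatives took the members' share outside its interval, 1 of the 90 that changed the match among them. No paired analysis was possible because there was 1 group. Depth is unknown, and 2 libraries give no spread for any share, so no share here has a replicate error.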

Other observations

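The same rule applied to chromosome X took 117 of 7268 replicate 1 footprints, and on chromosome Y it took 0 of 37.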
